A study of Homo sapiens with 60 samples.

Results

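The genes described here are 37 genes for blood coagulation and complement proteins that hepatocytes secrete, chosen by name as a list, and followed across 8 herbal extracts at 3 doses and vehicle. Of the 37 listed genes, 33 reached a mean of at least 1 CPM (the counts-per-million unit) over all 60 libraries and were kept, out of 16982 genes tested and 60675 gene IDs counted. C9 had no count in any library, F9 had a mean of 0.00162 CPM, KLKB1 a mean of 0.279 CPM and PLG a mean of 0.763 CPM, so these 4 were dropped. PLG lay just outside the limit, while C8G at 1.26 CPM, F13B at 1.41 CPM and C6 at 1.60 CPM lay just inside it.

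RNA was sequenced from HepG2, an established human liver cancer line, after 24 h with 70% ethanol extracts or with DMSO vehicle. The extracts were of 4 herbs (Menthae Herba, Saposhnikoviae Radix, Polygalae Radix and Aucklandiae Radix) or of 4 decoctions (Guibi-tang, Saengmaek-san, Okbyeongpung-san and Soyo-san). DMSO was 0.1% in the labels and 2% in the design text. Polygalae Radix was given at 250 (high), 50 (medium) or 10 ug/mL (low), and Aucklandiae Radix at 280, 56 or 11.2 ug/mL. For the 6 others these steps were 500, 100 and 20 ug/mL. A 20% inhibitory concentration is among the recorded design settings, and the doses of 250 and 280 ug/mL appear to be inhibitory ones. The part of growth inhibition in the changes at those doses was not tested. The labels place 2 extracts in each set, pairing Polygalae Radix with Aucklandiae Radix, Menthae Herba with Saposhnikoviae Radix, Saengmaek-san with Guibi-tang, and Soyo-san with Okbyeongpung-san, while the 3 vehicle libraries carry a set label of their own. Each dose had 3 libraries for Guibi-tang, Saengmaek-san, Menthae Herba and Saposhnikoviae Radix, 2 for Polygalae Radix, Aucklandiae Radix and Soyo-san, and 1 for Okbyeongpung-san.

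As background, the liver makes most of the plasma proteins that form a clot and most of those of the complement cascade. Clotting runs through a chain of proteases that ends in thrombin, which turns fibrinogen into fibrin, and serpins secreted by the same cells hold these proteases in check. Complement is started by antibody complexes (classical pathway), by sugars on microbes (lectin pathway) or by spontaneous turnover of C3 (alternative pathway), and all 3 routes meet at C3 and end in the membrane attack complex. Hepatocytes switch on many of these genes through liver-enriched transcription factors such as HNF4A and C/EBP proteins.

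Levels are given as CPM scaled between libraries by edgeR's trimmed mean of M-values (TMM). Total counts per library ran from 17518479 to 38905899, and mitochondrially encoded genes held 8.0% to 19.1% of counts. The 8 hepatocyte markers summed to between 16222 and 53609 CPM in every library, APOB being the largest. The 5 endothelial markers summed to between 2.06 and 6.30 CPM, the 5 stromal ones to between 4.90 and 16.8 CPM with DCN at 0, and the 5 blood cell markers to between 11.4 and 55.0 CPM with HBB at 0 and CD68 the largest, at a mean of 34.0 CPM. Nothing in the labels says whether libraries of 1 group came from separate cultures, so p-values here speak of the spread among these libraries, which may be technical. In bulk RNA, fewer cells that express a gene and less RNA per cell cannot be told apart.

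In the vehicle libraries the kept genes spanned a wide range of levels per kilobase of exon. SERPINA1, the elastase inhibitor alpha-1-antitrypsin, stood first at 1368 CPM per kb, followed by C3 at 336, FGG at 325 and FGA at 324 CPM per kb. FGG did not differ from C3 or FGA beyond the spread of its 3 libraries (SD 110 CPM around a mean of 1169 CPM). SERPINF2 at 196, FGB at 138 and F2 at 118 CPM per kb came next, followed by SERPIND1 at 94.1 and VTN at 48.8 CPM per kb. C6 was lowest at 0.349 CPM per kb, below F13B at 0.467 and MASP1 at 0.654 CPM per kb. Of the dropped genes KLKB1, which encodes prekallikrein, was at 0.115 CPM per kb and PLG, which encodes plasminogen, at 0.140 CPM per kb.

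At the high dose of 4 extracts most of these genes were lower than at the low dose of the same extract. Summed over the 33 genes, the level was 14648 ± 365 CPM (SD, n = 3) in vehicle. It was 12503 ± 259 CPM at the low dose of Polygalae Radix and 3393 ± 43 CPM at its high dose (SD, n = 2 each), and the vehicle, low-dose and high-dose libraries did not overlap. From low to high dose the sum went from 12689 ± 105 to 8750 ± 93 CPM (n = 2 each) with Aucklandiae Radix, from 13744 ± 236 to 9497 ± 244 CPM (n = 3 each) with Menthae Herba and from 13067 ± 528 to 9206 ± 626 CPM (n = 3 each) with Guibi-tang. The low-dose and high-dose libraries of each of these extracts were apart. With Soyo-san the sum was 13637 ± 142 CPM at the low and 12342 ± 51 CPM at the high dose (n = 2 each), with Saposhnikoviae Radix 14279 ± 384 and 13712 ± 125 CPM, and with Saengmaek-san 13533 ± 147 and 13401 ± 543 CPM (n = 3 each), the last pair with overlapping libraries. SERPINA1 made up a large share of each sum, and without it the sums at the low and high doses of Polygalae Radix were 6921 and 2170 CPM.

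**Figure D1:**
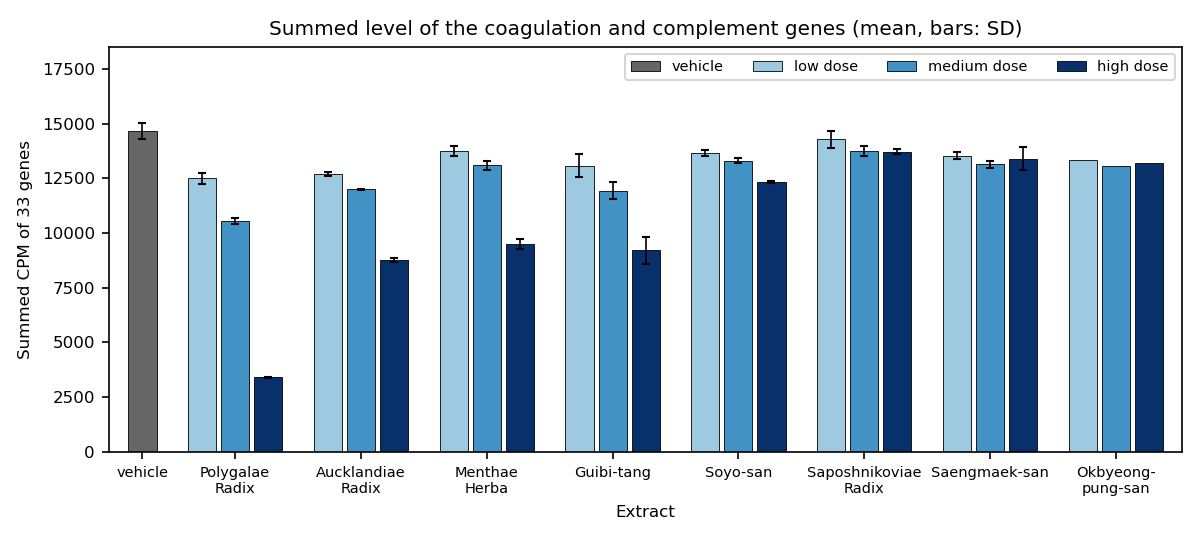
Summed TMM-scaled CPM of the 33 coagulation and complement genes (vertical axis) by extract and dose (horizontal axis); bars are group means and error bars are SD over 2 or 3 libraries, with 1 library per dose and no error bar for Okbyeongpung-san. The bar at the high dose of Polygalae Radix stands at 3393 CPM against 14648 CPM in vehicle, and the high-dose bars of Aucklandiae Radix, Menthae Herba and Guibi-tang stand between 8750 and 9497 CPM.

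Each gene was tested between high and low dose with edgeR's quasi-likelihood test, with p-values adjusted by the Benjamini-Hochberg method over all 16982 genes and called under 0.05. High and low doses of 1 extract belong to the same set, so a set difference does not enter this comparison. With Polygalae Radix 31 of the 33 genes fell and none rose, against 33% of all tested genes lower and 31.1% higher, and their median log2 fold change was -1.84, while the median over all tested genes was -0.01. With Aucklandiae Radix 29 fell and 1 rose (background 35.5% lower and 33.9% higher), with a median of -0.67. With Menthae Herba 27 fell and 1 rose (12.5% lower and 10.8% higher), with a median of -0.56, and with Guibi-tang 27 fell and 1 rose (17.5% lower and 16.8% higher), with a median of -0.46. The members' share of lower genes was thus far above the background share in these 4 extracts. The list was chosen with earlier results of these data known, so this comparison describes the list and is not independent evidence.

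The other 3 tested extracts moved fewer of these genes. With Soyo-san 10 fell and 1 rose (background 1.83% lower and 2.13% higher), with a median of -0.15. The share of lower genes was above the background share with this extract too. Its count rested on the libraries used: leaving out any 1 of its 4 high-dose and low-dose libraries left between 4 and 7 called genes. With Saposhnikoviae Radix 2 fell and 1 rose (0.442% lower and 0.389% higher), a count of 3 that went to 1 without the high-dose library of replicate 2. With Saengmaek-san 1 fell and 0 rose (0.23% lower and 0.206% higher), and 0 to 2 genes were called when 1 library was left out.

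**Figure D2:**
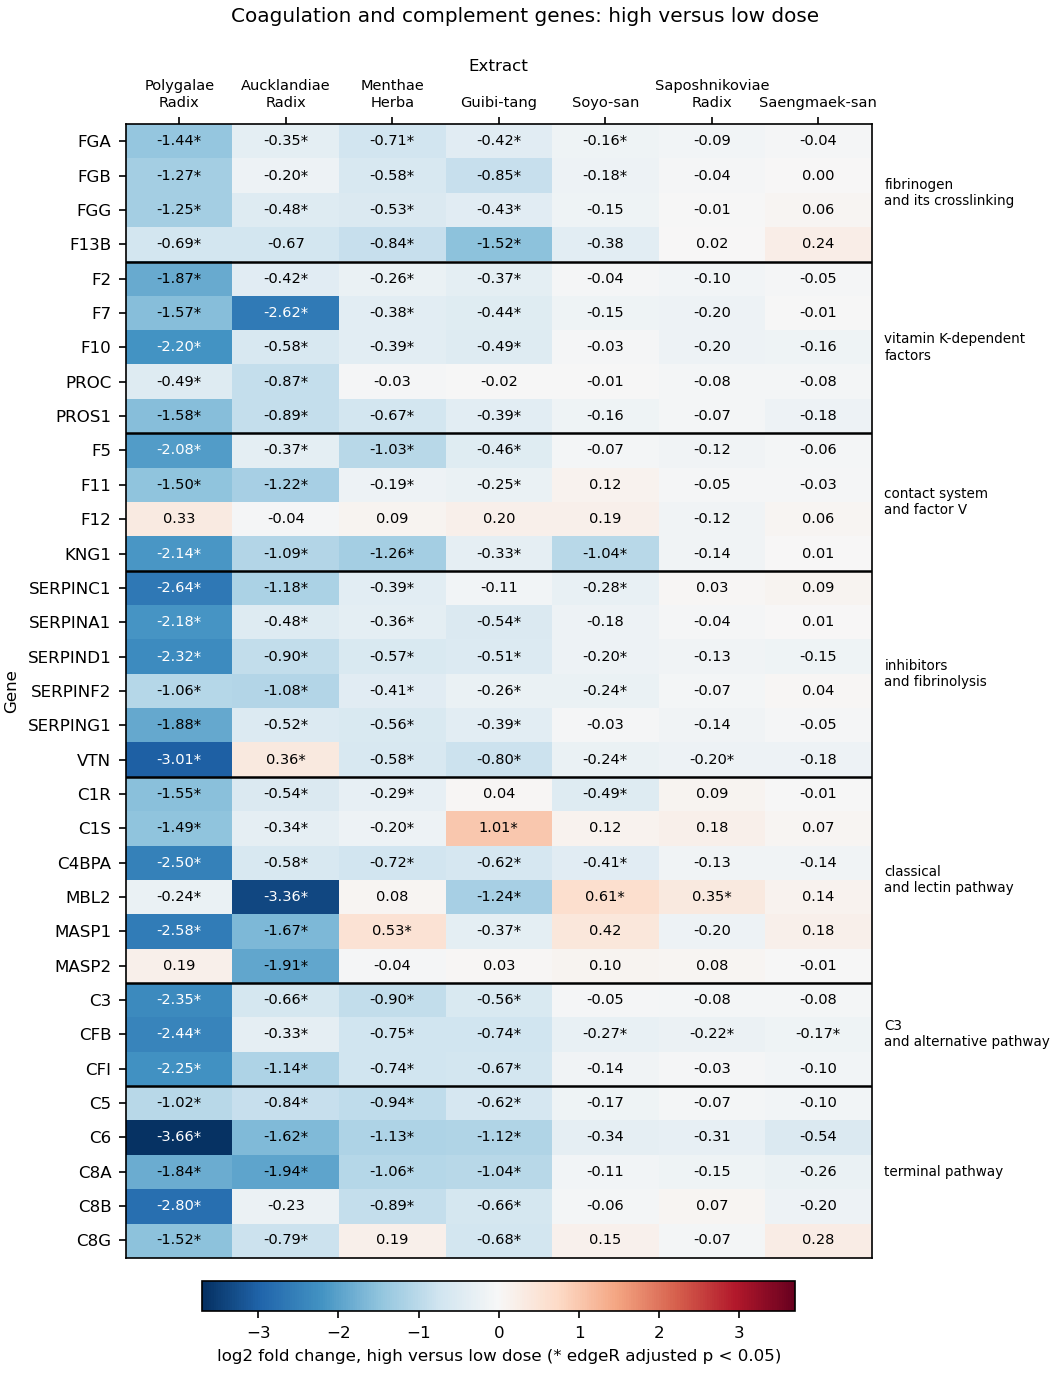
Log2 fold change between high and low dose for the 33 genes (rows, grouped by role) in the 7 extracts with replicates (columns); blue is lower and red is higher at the high dose, and an asterisk marks an edgeR adjusted p under 0.05. The Polygalae Radix column is blue in all rows but F12 (0.33) and MASP2 (0.19), and red cells with an asterisk are VTN with Aucklandiae Radix, MASP1 with Menthae Herba, C1S with Guibi-tang, and MBL2 with Soyo-san and Saposhnikoviae Radix.

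Of the 33 genes, 21 (63.6%) fell in all 4 of Polygalae Radix, Aucklandiae Radix, Guibi-tang and Menthae Herba, compared with 574 (3.38%) of all tested genes. CFB was the 1 gene that fell in all 7 extracts, and F12, the contact factor that starts the intrinsic pathway, was the 1 gene called in none, at 3.39 and 2.78 CPM at the low dose and 4.12 and 3.39 CPM at the high dose of Polygalae Radix. Without the high-dose library of replicate 3 or the low-dose library of replicate 2 of that extract F12 passed the test as higher (edgeR adjusted p = 0.049 and 0.045). Exons of F12 overlap those of GRK6 on the other strand over 399 bases, and GRK6 is at a mean of 33 CPM, so the F12 level is uncertain. GRK6 changed by 0.34 (SE 0.077) with Polygalae Radix and by -0.47 (SE 0.082) with Aucklandiae Radix. In all, 6 of the 33 genes share exon bases with another gene at a mean of at least 1 CPM (C1R, C1S, CFB, F11, F12 and MASP2).

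Summed hepatocyte markers moved with these declines. They were 46925 to 48286 CPM at the low and 16222 to 19973 CPM at the high dose of Polygalae Radix, 47481 to 47594 and 20851 to 21345 CPM with Aucklandiae Radix, 49390 to 51471 and 22729 to 26258 CPM with Menthae Herba, and 48538 to 50400 and 34951 to 36262 CPM with Guibi-tang. Of the 8 markers, which include the member SERPINA1, 7, 8, 6 and 7 fell at the high dose of these 4 extracts, while 1 rose with Polygalae Radix and 1 with Guibi-tang. With Saposhnikoviae Radix, Saengmaek-san and Soyo-san 1, 0 and 1 of the 8 fell. The sparse stromal markers summed to 5.12 to 6.43 CPM at the high and 9.87 to 11.0 CPM at the low dose of Polygalae Radix, and to 4.90 to 5.95 and 9.15 to 11.7 CPM with Guibi-tang. Blood cell markers summed to 11.4 to 17.4 CPM at the high and 31.2 to 31.6 CPM at the low dose of Polygalae Radix, and to 48.5 to 55.0 and 28.1 to 34.0 CPM with Guibi-tang. Mitochondrially encoded genes held 17.5% to 17.7% of counts at the high and 12.0% to 12.9% at the low dose of Polygalae Radix, and 8.02% to 8.17% at the high and 12.4% to 14.0% at the low dose of Aucklandiae Radix. The part of these shifts in the members' changes was not tested.

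The fibrinogen genes and F13B, which encodes the carrier subunit of the fibrin crosslinking factor XIII, fell together in most of the responding extracts. All 4 fell with Polygalae Radix, Menthae Herba and Guibi-tang, and 3 of 4 with Aucklandiae Radix. FGA, the fibrinogen alpha chain, was at 1279, 1282 and 1284 CPM in vehicle, at 1219 and 1260 CPM at the low dose of Polygalae Radix, at 1000 and 1062 CPM at the medium dose and at 430 and 475 CPM at the high dose. The 4 groups did not overlap, and the change from low to high dose was -1.44 on the log2 scale (SE 0.047, edgeR adjusted p = 2e-29). At the high dose of Menthae Herba FGA was at 968, 892 and 842 CPM against 1482, 1458 and 1475 CPM at the low dose, and at the high dose of Guibi-tang at 1045, 957 and 1020 CPM against 1312, 1379 and 1357 CPM. Every high-dose library was below every low-dose library in both extracts. FGB, the beta chain, fell by 0.85 (SE 0.043) with Guibi-tang against 0.42 (SE 0.038) for FGA and 0.43 (SE 0.048) for FGG, the gamma chain, while with Polygalae Radix the 3 changes were -1.27, -1.44 and -1.25. Whether the 3 chains differ from one another was not tested.

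F13B was among the scarcest genes. It was at 2.00, 1.74 and 1.65 CPM at the low dose of Guibi-tang and at 0.449, 0.712 and 0.717 CPM at the high dose (61, 40 and 46 against 11, 16 and 17 counts), with no overlap, a change of -1.52 (SE 0.21, edgeR adjusted p = 9.5e-08). With Polygalae Radix it was at 0.982 and 1.28 CPM at the low and 0.903 and 0.496 CPM at the high dose, and the change of -0.69 (SE 0.26, edgeR adjusted p = 0.022) was not called without the high-dose library of replicate 3 (-0.36, edgeR adjusted p = 0.32), without the low-dose library of replicate 3 (edgeR adjusted p = 0.35) or with DESeq2 (adjusted p = 0.073). With Aucklandiae Radix the change of -0.67 did not pass the test (edgeR adjusted p = 0.07). It passed with a GC and length trend removed (-0.79, edgeR adjusted p = 0.03), without the high-dose library of replicate 2 (-0.97, edgeR adjusted p = 0.049) or without the low-dose library of replicate 3 (-0.93, edgeR adjusted p = 0.027).

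The promoters of FGA, FGB and F13B share a short match to the pattern GTTAAT close to the start of transcription, and so does that of C4BPA, which encodes the alpha chain of C4b-binding protein, a complement inhibitor. RefSeq promoters of GRCh38.p14, running from 250 bases before to 50 after the start, were matched for 27 of the 33 genes, and GTTAAT or its reverse complement lay in 7 of the 27 (25.9%), against 6.9% of 27305 promoters of the same length. The stretch from base -100 to -31 is shown for these 4 genes because the match starts at nearly the same place in each, at -52, -51, -56 and -50, and capitals mark it.
FGA, chr4:154590773-154590842, minus strand: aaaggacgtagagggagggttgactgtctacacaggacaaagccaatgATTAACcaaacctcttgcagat
FGB, chr4:154562880-154562949, plus strand: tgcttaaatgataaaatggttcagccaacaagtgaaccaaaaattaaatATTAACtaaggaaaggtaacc
F13B, chr1:197067291-197067360, minus strand: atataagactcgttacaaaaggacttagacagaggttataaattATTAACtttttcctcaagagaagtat
C4BPA, chr1:207104133-207104202, plus strand: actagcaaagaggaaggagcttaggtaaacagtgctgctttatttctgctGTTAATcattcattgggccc
The other 3 promoters with the match were those of F2 (-34), PROC (-3) and CFI (-248). The C/EBP pattern TTGCNNAA was in 7 of 27 promoters (25.9%, against 10.6% of all), the HNF4 pattern CAAAGTCC in 1 (3.7% against 1.2%) and GCGTG, the core that the xenobiotic receptor AHR binds, in 5 (18.5% against 36.3%). The patterns were searched on both strands, and a match describes the letters only.

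The vitamin K-dependent group holds F2 (prothrombin), the proteases F7 and F10, and the anticoagulants PROC (protein C) and its cofactor PROS1. All 5 fell with Polygalae Radix and with Aucklandiae Radix, and 4 of 5 with Menthae Herba and Guibi-tang, PROC being the exception in both (-0.03 and -0.02). F7, which starts clotting together with tissue factor, was at 14.0 and 15.2 CPM in low-dose Aucklandiae Radix, at 14.4 and 15.9 CPM at the medium dose and at 2.36 and 2.34 CPM at the high dose. Low and medium doses overlapped and the high dose lay far below both, a 6.15-fold lower level (log2 fold change -2.62, SE 0.13, edgeR adjusted p = 3.4e-23). F10, which turns F2, prothrombin, into thrombin, was at 29.2 and 35.1 CPM at the low and 22.6 and 20.0 CPM at the high dose of Aucklandiae Radix, without overlap, a change of -0.58 (SE 0.096, edgeR adjusted p = 6.8e-07).

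F2 fell by 1.87 with Polygalae Radix, 0.42 with Aucklandiae Radix, 0.26 with Menthae Herba and 0.37 with Guibi-tang, and PROS1 by 1.58, 0.89, 0.67 and 0.39 with the same extracts. PROC fell by 0.49 (SE 0.078) with Polygalae Radix and 0.87 (SE 0.08) with Aucklandiae Radix.

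With Polygalae Radix the order of these neighbouring genes was the other way round. F10 was at 33.8 and 34.3 CPM at the low and 8.23 and 6.44 CPM at the high dose (log2 fold change -2.20, SE 0.11), and F7 at 12.9 and 13.9 and at 4.26 and 4.75 CPM (-1.57, SE 0.11). For both genes low and high doses were apart. F7 and F10 lie on the same strand of chromosome 13, with 2132 bases between them. Their promoters from base -250 to -31 are shown because the changes of this pair with Aucklandiae Radix were far apart in size, and capitals mark GCGTG or its reverse complement.
F7, chr13:113105541-113105760, plus strand: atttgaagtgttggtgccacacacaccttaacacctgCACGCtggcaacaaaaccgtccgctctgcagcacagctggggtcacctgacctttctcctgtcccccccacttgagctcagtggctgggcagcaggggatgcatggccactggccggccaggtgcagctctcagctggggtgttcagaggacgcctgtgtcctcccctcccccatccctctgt
F10, chr13:113122549-113122768, plus strand: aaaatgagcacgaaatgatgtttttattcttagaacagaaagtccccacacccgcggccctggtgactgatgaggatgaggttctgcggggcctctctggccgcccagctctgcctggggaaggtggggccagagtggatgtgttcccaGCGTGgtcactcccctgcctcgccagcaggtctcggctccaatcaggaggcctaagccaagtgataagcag
In the F10 promoter the HNF4 pattern started at -1 and a further GCGTG match at -5, sharing 1 base, both outside the stretch shown.

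**Figure D3:**
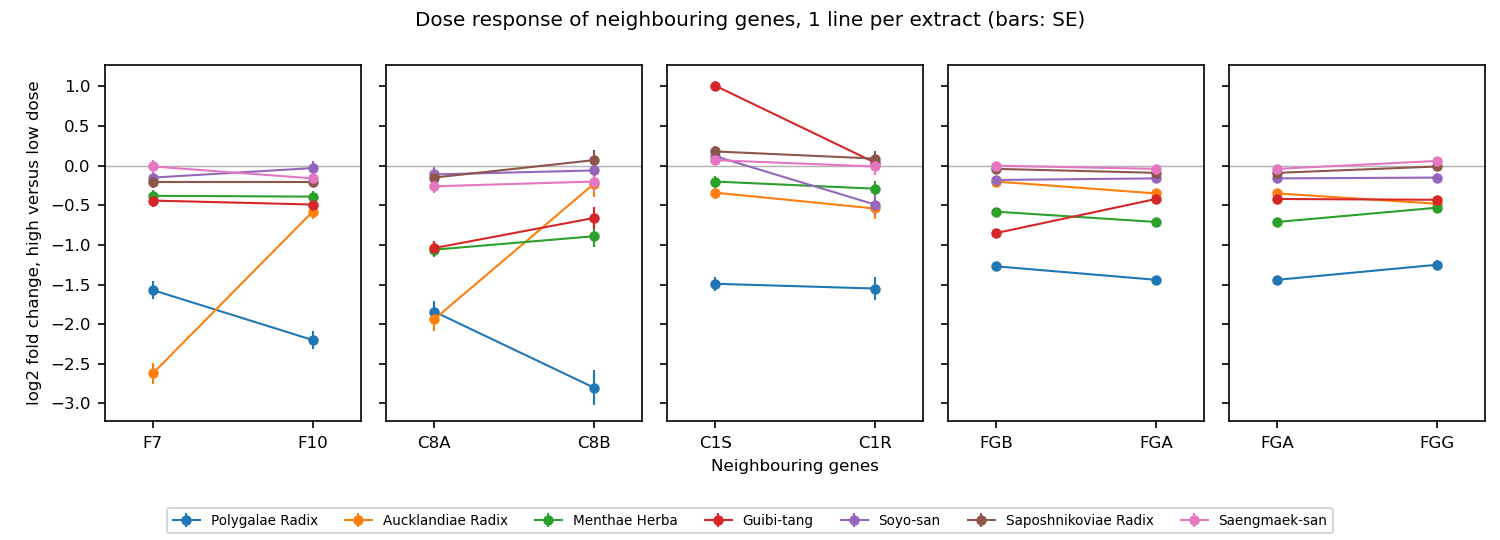
Log2 fold change between high and low dose (vertical axis) for 5 pairs of neighbouring genes (horizontal axis), with 1 line per extract and error bars of 1 SE. The line of Aucklandiae Radix is steep between F7 (-2.62) and F10 (-0.58) and between C8A (-1.94) and C8B (-0.23), and that of Guibi-tang between C1S (1.01) and C1R (0.04).

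In the contact system and factor V group, F5 (the cofactor of F10), F11 (a protease of the intrinsic pathway) and KNG1 (kininogen, the precursor of bradykinin) fell with the same 4 extracts. F5 was at 204 CPM in both libraries at the low dose of Polygalae Radix and at 42.8 and 53.1 CPM at the high dose, with no overlap (-2.08, SE 0.077, edgeR adjusted p = 2.8e-27). With Menthae Herba F5 went from 227, 223 and 232 CPM to 123, 111 and 98.7 CPM, again without overlap (-1.03, SE 0.059, edgeR adjusted p = 5.7e-19). KNG1 also fell with Soyo-san, where it was at 5.87 and 7.27 CPM at the low, 5.09 and 6.06 CPM at the medium and 3.08 and 3.29 CPM at the high dose (-1.04, SE 0.13, edgeR adjusted p = 3e-07). Low and medium doses overlapped, and the high-dose libraries were below both. With Polygalae Radix KNG1 was at 7.61 and 6.87 CPM at the low and 1.63 and 1.61 CPM at the high dose, far apart. KNG1 fell by 2.14 (SE 0.14) with Polygalae Radix, 1.09 (SE 0.14) with Aucklandiae Radix, 1.26 (SE 0.1) with Menthae Herba and 0.33 (SE 0.099) with Guibi-tang, the last not called without the high-dose library of replicate 2 (edgeR adjusted p = 0.059). F11 fell by 1.5 with Polygalae Radix and 1.22 with Aucklandiae Radix, and by 0.19 with Menthae Herba, where the call was lost without the high-dose library of replicate 3 (edgeR adjusted p = 0.23) or the low-dose library of replicate 1 (edgeR adjusted p = 0.22). F11-AS1, on the other strand over 354 exon bases, changed by -1.20 and -1.45 with the first pair, and the strand setting of the counting is not given in the sources used here, so reads of the pair cannot be told apart.

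Among inhibitors and fibrinolysis genes, all 6 fell with Polygalae Radix and with Menthae Herba. SERPINC1 encodes antithrombin, which blocks thrombin and F10. It was at 73.2 and 76.5 CPM at the low, 61.5 and 61.6 CPM at the medium and 11.7 and 12.1 CPM at the high dose of Polygalae Radix (low to high -2.64, SE 0.087, edgeR adjusted p = 2.7e-29). With Aucklandiae Radix it was at 76.9 and 79.4, 83 and 83.3, and 35.2 and 33.3 CPM in the same order (-1.18, SE 0.076, edgeR adjusted p = 2e-18). The high-dose libraries were the lowest in both. With Guibi-tang its libraries at the high dose (76.5, 61.7 and 76.3 CPM) overlapped those at the low dose (82.1, 78.2 and 71.6 CPM), and the change of -0.11 did not pass the test (edgeR adjusted p = 0.14), but passed it without the low-dose library of replicate 3 (-0.17, edgeR adjusted p = 0.041). SERPIND1 (heparin cofactor II) fell by 2.32 and SERPINA1 by 2.18 with Polygalae Radix, and SERPINF2 (the plasmin inhibitor alpha-2-antiplasmin) by 1.06 with Polygalae Radix and 1.08 with Aucklandiae Radix. SERPING1, which inhibits C1 and the contact proteases, fell by 1.88 with Polygalae Radix, 0.52 with Aucklandiae Radix, 0.56 with Menthae Herba and 0.39 with Guibi-tang.

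VTN encodes vitronectin, an adhesion protein of plasma and matrix that also inhibits the terminal complement complex. With Polygalae Radix VTN was at 97.7 and 94.4 CPM at the low, 75.9 and 71.2 CPM at the medium and 12.4 and 11.2 CPM at the high dose, 8.05-fold lower at the high than at the low dose (log2 fold change -3.01, SE 0.071, edgeR adjusted p = 8.7e-35). With Aucklandiae Radix it was at 85.6 and 85.1 CPM at the low, 68.1 and 72.1 CPM at the medium and 114 and 104 CPM at the high dose, so the medium dose was lowest and the high dose highest, without overlap. The rise from low to high dose was 0.36 (SE 0.057, edgeR adjusted p = 3.1e-07), and from low to medium dose VTN fell by 0.28 (SE 0.059, edgeR adjusted p = 0.0012). Vehicle libraries were at 109, 125 and 121 CPM and overlapped the high dose, and the change against vehicle of -0.11 (edgeR adjusted p = 0.046) did not hold under other settings. It turned to 0.20 when a trend with GC content and length was removed. The call was lost with DESeq2 and with RLE scaling in edgeR (adjusted p = 0.17 each), with a filter at a mean of 1 CPM (edgeR adjusted p = 0.24) and with only the groups compared (edgeR adjusted p = 0.12). It was also lost without vehicle replicate 2 or 3 (edgeR adjusted p = 0.25 and 0.12) or the high-dose library of replicate 3 (-0.04, edgeR adjusted p = 0.56). VTN fell with Menthae Herba (-0.58), Guibi-tang (-0.80), Soyo-san (-0.24) and Saposhnikoviae Radix (-0.20). The call with Soyo-san was lost without the high-dose library of replicate 1 or 2 or the low-dose library of replicate 1 (edgeR adjusted p = 0.086, 0.056 and 0.071). That with Saposhnikoviae Radix was lost without the high-dose library of replicate 1 or 2 or the low-dose library of replicate 3 (edgeR adjusted p = 0.11, 0.14 and 0.21).

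**Figure D4:**
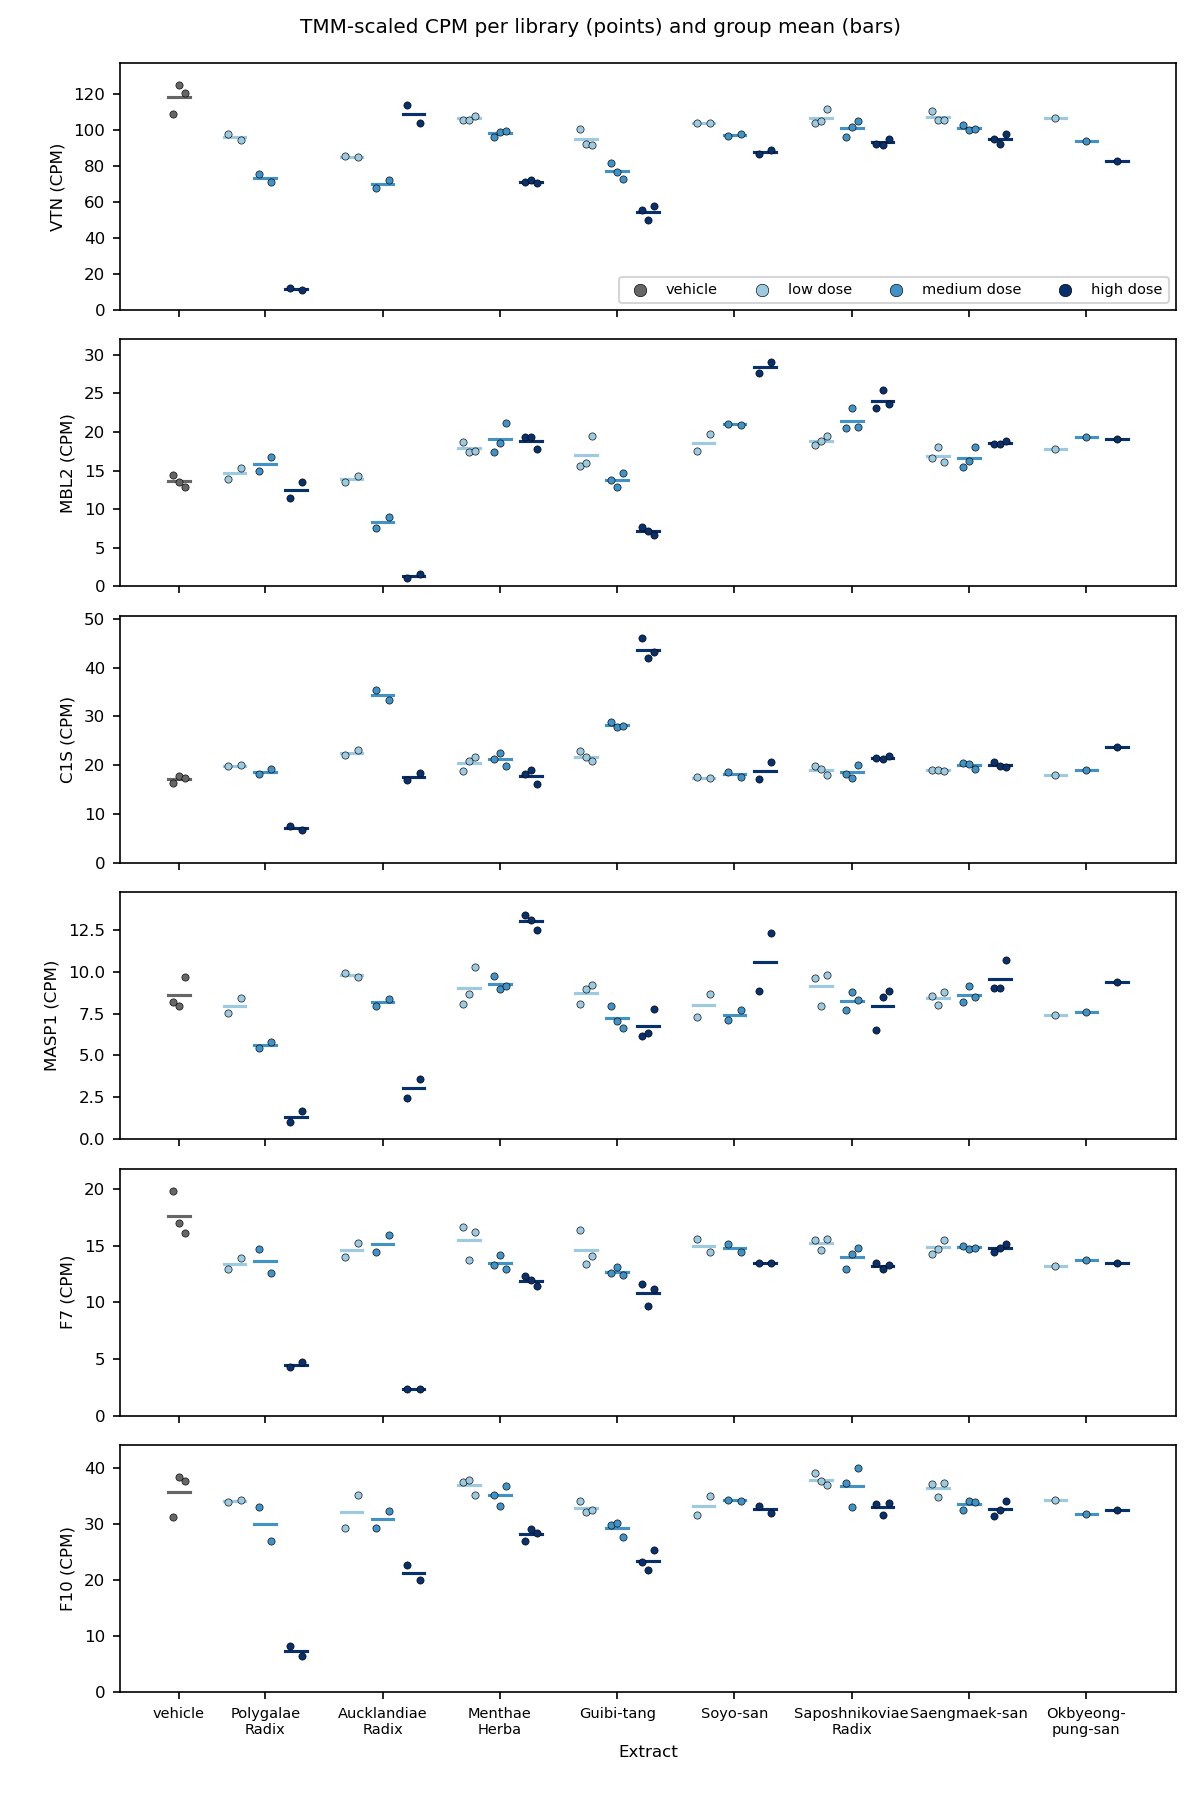
TMM-scaled CPM (vertical axes) of VTN, MBL2, C1S, MASP1, F7 and F10 in each library (points) with group means (bars), by extract (horizontal axis) and dose (shade). MBL2 runs down to 1.08 and 1.60 CPM at the high dose of Aucklandiae Radix and up to 27.7 and 29.1 CPM at that of Soyo-san, and C1S is highest at the high dose of Guibi-tang, at 41.9 to 46.0 CPM.

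The classical and lectin pathway genes did not move as 1 group. All 6 fell with Aucklandiae Radix and 5 with Polygalae Radix, but with Menthae Herba and Guibi-tang 3 fell and 1 rose, with Soyo-san 2 fell and 1 rose, and with Saposhnikoviae Radix 0 fell and 1 rose. MBL2 encodes mannose-binding lectin, which recognises sugars on microbes and starts the lectin pathway. With Aucklandiae Radix MBL2 was at 13.5 and 14.3 CPM at the low, 7.54 and 9 CPM at the medium and 1.08 and 1.60 CPM at the high dose. The 3 doses did not overlap, and the level at the high dose was 10.3-fold lower than at the low dose (log2 fold change -3.36, SE 0.16, edgeR adjusted p = 2.9e-23).

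With Guibi-tang MBL2 was at 15.6, 16.0 and 19.5 CPM at the low, 13.8, 12.9 and 14.7 CPM at the medium and 7.72, 7.16 and 6.71 CPM at the high dose, again in 3 separate steps (-1.24, SE 0.092, edgeR adjusted p = 2.2e-15). With Soyo-san it rose, from 17.5 and 19.7 CPM at the low through 21.1 and 20.9 CPM at the medium to 27.7 and 29.1 CPM at the high dose (0.61, SE 0.095, edgeR adjusted p = 1.1e-05), without overlap. With Saposhnikoviae Radix it was at 18.3, 18.8 and 19.5 CPM at the low and 23.1, 25.4 and 23.6 CPM at the high dose (0.35, SE 0.078, edgeR adjusted p = 0.012). This last rise was not called without the high-dose library of replicate 2 (0.31, edgeR adjusted p = 0.13) or the low-dose library of replicate 1 or 2 (edgeR adjusted p = 0.074 and 0.051). With Polygalae Radix the change was -0.24 (edgeR adjusted p = 0.038), at 13.9 and 15.4 CPM at the low and 11.4 and 13.5 CPM at the high dose. It was lost without the high-dose library of replicate 2 (-0.13, edgeR adjusted p = 0.39), without the low-dose library of replicate 3 (-0.16, edgeR adjusted p = 0.33) and with DESeq2 (adjusted p = 0.06).

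The MBL2 promoter is shown because this gene fell steeply with Aucklandiae Radix and rose with other extracts. Capitals mark its matches to the C/EBP pattern TTGCNNAA on either strand, which start at -244 and -230.
MBL2, chr10:52772815-52773034, minus strand: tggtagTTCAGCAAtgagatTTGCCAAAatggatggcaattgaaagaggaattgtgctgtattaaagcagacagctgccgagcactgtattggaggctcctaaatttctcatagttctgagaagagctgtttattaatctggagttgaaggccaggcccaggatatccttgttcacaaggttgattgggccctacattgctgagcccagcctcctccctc

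MASP1 and MASP2 encode the proteases that mannose-binding lectin carries. MASP1 was at 7.51 and 8.43 CPM at the low and 1.05 and 1.65 CPM at the high dose of Polygalae Radix (-2.58, SE 0.19, edgeR adjusted p = 4.5e-16). With Aucklandiae Radix it was at 9.93 and 9.66 CPM at the low and 2.48 and 3.61 CPM at the high dose (-1.67, SE 0.16, edgeR adjusted p = 1.9e-12). With Menthae Herba it rose, from 8.08, 8.68 and 10.3 CPM at the low through 9.76, 8.94 and 9.13 CPM at the medium to 13.4, 13.1 and 12.5 CPM at the high dose (0.53, SE 0.11, edgeR adjusted p = 0.00018). Low and high doses were apart in all 3 extracts. With Guibi-tang its fall of 0.37 (edgeR adjusted p = 0.012) was lost without the high-dose library of replicate 1 or 2 or the low-dose library of replicate 3 (edgeR adjusted p = 0.081, 0.054 and 0.055). MASP2, named after its values were seen, was at 17.0 and 17.2 CPM at the low and 4.76 and 4.27 CPM at the high dose of Aucklandiae Radix (-1.91, SE 0.13, edgeR adjusted p = 3.4e-18). With Polygalae Radix it was at 17.1 and 17.3 and at 21.3 and 17.5 CPM (0.19, edgeR adjusted p = 0.087), and the test was passed with a GC and length trend removed (0.30, edgeR adjusted p = 0.0012) or without the high-dose library of replicate 3 (0.31, edgeR adjusted p = 0.017). Exons of MASP2 overlap an antisense RNA, AL109811.3, over 75 bases, at a mean of 2.29 CPM.

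C1R and C1S encode the proteases of C1, which start the classical pathway, and lie on opposite strands of chromosome 12 with 9166 bases between them. C1S was at 22.9, 21.6 and 20.8 CPM at the low, 28.9, 27.8 and 28.1 CPM at the medium and 46.0, 41.9 and 43.2 CPM at the high dose of Guibi-tang. The 3 doses did not overlap, and the high dose was 2.01-fold above the low dose (1.01, SE 0.059, edgeR adjusted p = 7.5e-19). C1R, named as its neighbour after values were seen, was at 5.87, 5.57 and 5.19 CPM at the low and 6.09, 5.20 and 5.82 CPM at the high dose, overlapping (0.04, SE 0.099, edgeR adjusted p = 0.8). Exons of C1S and EMG1 share 229 bases on the same strand, and EMG1 changed by 0.06 (SE 0.067, edgeR adjusted p = 0.58) with Guibi-tang. Exons of C1R and C1RL share 672 bases, C1RL is at a mean of 41.1 CPM, and C1RL rose by 0.23 (SE 0.062, edgeR adjusted p = 0.003), so the C1R level is uncertain.

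With Aucklandiae Radix C1S followed another course. It was at 22 and 23.1 CPM at the low, 35.5 and 33.3 CPM at the medium and 16.9 and 18.4 CPM at the high dose, against 16.3, 17.8 and 17.4 CPM in vehicle. The medium dose was highest and did not overlap the others, with a rise over the low dose of 0.61 (SE 0.073, edgeR adjusted p = 7.3e-08), while from low to high dose C1S fell by 0.34 (SE 0.078, edgeR adjusted p = 0.00014). With Polygalae Radix C1S was at 19.8 and 20.0 CPM at the low and 7.44 and 6.61 CPM at the high dose, far apart (-1.49, SE 0.089, edgeR adjusted p = 1.9e-19). With Menthae Herba the change of -0.20 (edgeR adjusted p = 0.021) was lost without the low-dose library of replicate 2 or 3 or the high-dose library of replicate 3 (edgeR adjusted p = 0.079, 0.15 and 0.19). C4BPA fell by 2.50 with Polygalae Radix, 0.58 with Aucklandiae Radix, 0.72 with Menthae Herba, 0.62 with Guibi-tang and 0.41 with Soyo-san. C1R fell by 1.55 and 0.54 with Polygalae Radix and Aucklandiae Radix. C1RL, which shares exon bases with C1R, changed by -0.99 and -1.89 with these extracts, so the C1R changes are uncertain. The C1R calls with Menthae Herba and Soyo-san were lost with DESeq2 (adjusted p = 0.1 and 0.093).

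C3, the hub of the cascade, and the alternative pathway genes CFB (factor B, the protease of the C3 convertase) and CFI (factor I, which inactivates C3b) moved together: all 3 fell with Polygalae Radix, Aucklandiae Radix, Guibi-tang and Menthae Herba. C3 was at 2742, 2796 and 2859 CPM in vehicle and at 2029 and 2085, 1812 and 1638, and 406 and 398 CPM at the low, medium and high doses of Polygalae Radix. No pair of these groups overlapped, and the high dose was 5.08-fold below the low dose (-2.35, SE 0.053, edgeR adjusted p = 2.2e-35). C3 fell by 0.90 (SE 0.041) with Menthae Herba, from 2430, 2321 and 2395 to 1340, 1330 and 1145 CPM, and by 0.56 (SE 0.041) with Guibi-tang, from 2392, 2239 and 2204 to 1551, 1531 and 1545 CPM, without overlap in either. CFI fell by 2.25 with Polygalae Radix, 1.14 with Aucklandiae Radix, 0.74 with Menthae Herba and 0.67 with Guibi-tang.

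CFB was at 133 and 136 CPM at the low, 109 and 104 CPM at the medium and 25.3 and 23.9 CPM at the high dose of Polygalae Radix (-2.44, SE 0.05, edgeR adjusted p = 8.3e-37). Its declines were small with the extracts that moved fewer genes, at -0.27 (SE 0.045) with Soyo-san, -0.22 (SE 0.036) with Saposhnikoviae Radix and -0.17 (SE 0.036, edgeR adjusted p = 0.0063) with Saengmaek-san. With Saengmaek-san it was at 151, 142 and 154 CPM at the low and 129, 132 and 136 CPM at the high dose, without overlap. That call was lost without the high-dose library of replicate 1 or the low-dose library of replicate 1 or 3 (edgeR adjusted p = 0.1, 0.057 and 0.15). CFB and C2 share 23 exon bases, and an annotated gene that joins them (AL645922.1) shares 2249 bases with CFB at a mean of 0.178 CPM.

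The terminal pathway genes make the membrane attack complex, which C5 starts and C6, C7, C8 and C9 build. All 5 kept genes fell with Polygalae Radix and Guibi-tang and 4 of 5 with Aucklandiae Radix and Menthae Herba. C6 was at 2.26 and 1.86 CPM at the low dose of Polygalae Radix (46 and 73 counts) and at 0 and 0.330 CPM at the high dose (0 and 8 counts), without overlap. The fitted change of -3.66 (SE 0.39, edgeR adjusted p = 3.5e-11) rests on these few counts, and a library of 0 counts allows up to 3. C6 fell by 1.62 (SE 0.3) with Aucklandiae Radix, 1.13 (SE 0.23) with Menthae Herba and 1.12 (SE 0.23) with Guibi-tang. C5 fell by 1.02 with Polygalae Radix, 0.84 with Aucklandiae Radix, 0.94 with Menthae Herba and 0.62 with Guibi-tang. C8G, the gamma chain of C8, fell by 1.52 with Polygalae Radix, and its falls of 0.79 with Aucklandiae Radix and 0.68 with Guibi-tang were lost under other settings, such as without the high-dose library of replicate 2 (edgeR adjusted p = 0.051 and 0.14).

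C8A and C8B encode the alpha and beta chains of C8 and lie on opposite strands of chromosome 1, with 10988 bases between them. C8B was at 3.88 and 4.21 CPM at the low and 0.614 and 0.537 CPM at the high dose of Polygalae Radix (-2.80, SE 0.22, edgeR adjusted p = 4.4e-15). With Aucklandiae Radix it was at 3.85 and 4.52 and at 3.85 and 3.20 CPM, where the 2 doses met at 3.85 CPM and the change of -0.23 did not pass the test (SE 0.16, edgeR adjusted p = 0.21). C8A, named as its neighbour after values were seen, was at 11.2 and 12.4 CPM at the low and 3.11 and 3.00 CPM at the high dose of Aucklandiae Radix (-1.94, SE 0.14, edgeR adjusted p = 2.7e-17). With Menthae Herba the pair changed by -1.06 (C8A) and -0.89 (C8B), and with Guibi-tang by -1.04 and -0.66. Differences between neighbouring genes were not tested.

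Extracts of the same set were then compared by testing the difference of their dose responses, high minus low dose in the first extract minus high minus low dose in the second. Doses of Polygalae Radix and Aucklandiae Radix differ, so this pair compares each extract's own dose range. The response differed for 26 of the 33 genes. It was lower with Polygalae Radix for 22 (background 31.4%) and higher for 4 (28.7%). VTN differed by -3.37 (SE 0.091), C8B by -2.56 (SE 0.29), CFB by -2.11 (SE 0.067) and C6 by -2.03 (SE 0.56), all lower with Polygalae Radix. The 4 genes on the other side were MBL2 at 3.12 (SE 0.2), MASP2 at 2.10 (SE 0.16), F7 at 1.05 (SE 0.18) and PROC at 0.38 (SE 0.11). For C8A the difference was 0.10 (SE 0.2, edgeR adjusted p = 0.69) and did not pass the test.

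**Figure D5:**
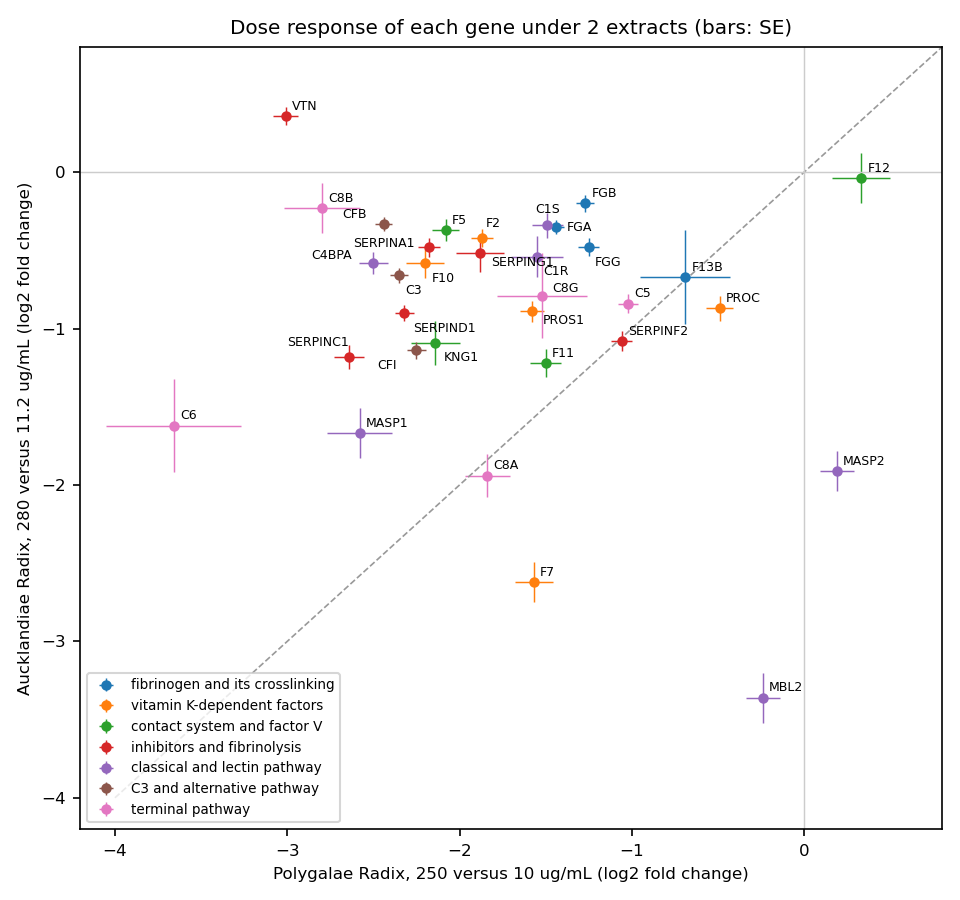
Log2 fold change between high and low dose with Polygalae Radix (horizontal axis) and with Aucklandiae Radix (vertical axis) for the 33 genes, coloured by role, with error bars of 1 SE and a dashed line of equal change. VTN lies far above the line at -3.01 and 0.36, while MBL2 (-0.24 and -3.36), MASP2 (0.19 and -1.91) and F7 (-1.57 and -2.62) lie below it.

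At the same doses of 500 and 20 ug/mL, Menthae Herba gave a lower response than Saposhnikoviae Radix for 21 genes (background 6.28%) and a higher one for 1 (4.34%), which was MASP1 at 0.73 (SE 0.16). Guibi-tang gave a lower response than Saengmaek-san for 22 genes (10.2%) and a higher one for 1 (9.4%), which was C1S at 0.93 (SE 0.087). Among the 22 was MBL2 at -1.38 (SE 0.12).

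With Polygalae Radix 19 genes fell between medium and low dose (background 5.09%), among them C3 by 0.25 and FGB by 0.36, but the count was 10 without the medium-dose library of replicate 2 and 0 when only these 2 groups were fitted. With Aucklandiae Radix 5 fell (2.03%) and 1 rose (2.32%), the latter being C1S, and 2 to 4 were called with 1 library left out. With Guibi-tang 9 fell (1.74%) and 1 rose (1.86%), again C1S (0.37, SE 0.061), and 5 to 7 were called with 1 library left out. With Menthae Herba 1 fell (0.0942%), which was CFB at -0.16, and this call was lost whichever library was left out. With Saposhnikoviae Radix, Saengmaek-san and Soyo-san edgeR called 0 of the 33 genes (0.0118%, 0% and 0.00589% of all genes in either direction), DESeq2 also called 0, and 4, 4 and 3 genes had an unadjusted p under 0.05.

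Against vehicle, set and treatment cannot be told apart, and every comparison shares the same 3 vehicle libraries. At the high dose 31 genes fell with Polygalae Radix (background 33.8%), 30 with Aucklandiae Radix (36.7%), 28 with Guibi-tang (25.4%) and 25 with Menthae Herba (24.2%). With Soyo-san 15 fell (19%) and 1 rose (19.8%), with Saposhnikoviae Radix 13 fell (19.9%) and 8 rose (20.2%), and with Saengmaek-san 12 fell (20%) and 6 rose (20.5%). With a trend with GC content and length removed, 4 genes were called higher with each of the last pair. In that pair 4 and 7 values changed sign or, for F2 with Saengmaek-san, went to 0.00 after rounding, each called in at least 1 of the 2 fits. The 1 gene higher with Soyo-san was MBL2, and FGG, not called before the trend was removed, turned to -0.24 there. C1S with Guibi-tang was 1.35 above vehicle on the log2 scale (SE 0.061) and MBL2 with Soyo-san 1.05 above it (SE 0.09). Even at the low dose many genes differed from vehicle in either direction: 13 of 33 with Polygalae Radix (background 36.1%), 14 with Aucklandiae Radix (33.3%), 18 with Menthae Herba (38%), 19 with Saposhnikoviae Radix (37.6%), 16 with Saengmaek-san (38.7%), 17 with Guibi-tang (40.1%) and 15 with Soyo-san (34.2%). With a trend with GC content and length removed the counts were 11 for Menthae Herba, 9 for Saposhnikoviae Radix and 9 for Soyo-san, where 27.5%, 26.1% and 25.2% of all tested genes were called. The count of 19 went to 12 without vehicle replicate 2, and that of 15 to 7 without the low-dose Soyo-san library of replicate 2. The counts for Polygalae Radix and Aucklandiae Radix were near the background share before that trend was removed. With it removed they were 15 and 16, where 27.5% and 24.6% of all tested genes were called.

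Okbyeongpung-san had 1 library per dose and was not tested. Between high and low dose none of the 33 genes was at least 1.5-fold lower (5.36% of all tested genes were) or higher (3.48%), with 0.1 CPM added to each value. The median difference of the 33 was -0.04, and 20 lay below 0. VTN was at 107, 94.3 and 82.9 CPM, and C1S at 17.9, 19.0 and 23.8 CPM at the low, medium and high doses.

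Other genes of the same pathways moved less evenly between high and low dose. Of all tested genes, 64.1% were called in either direction with Polygalae Radix and 69.4% with Aucklandiae Radix. With Guibi-tang, Menthae Herba and Soyo-san the share was 34.3%, 23.3% and 3.95%, and with Saposhnikoviae Radix and Saengmaek-san 0.83% and 0.436%. The shares by direction are given above, and some counts of this list and the lists below lie near them. Of 19 further coagulation and fibrinolysis genes 17 were tested: 11 fell and 2 rose with Polygalae Radix, 8 fell and 8 rose with Aucklandiae Radix, 4 fell and 4 rose with Menthae Herba, and 5 fell and 7 rose with Guibi-tang. With Soyo-san 0 fell and 3 rose, with Saposhnikoviae Radix 2 fell and 0 rose, and with Saengmaek-san none was called. PLAUR, the urokinase receptor, rose by 2.68 and PLAU, urokinase itself, by 1.52 with Aucklandiae Radix. SERPINA5, the protein C inhibitor, fell by 2.52 and A2M, a broad protease inhibitor, by 2.00 with Polygalae Radix, and CPB2, a fibrinolysis inhibitor, by 1.94 with Aucklandiae Radix. F3, the tissue factor that pairs with F7, named after its values were seen, rose by 1.13 with Polygalae Radix, 0.80 with Aucklandiae Radix, 0.55 with Guibi-tang and 0.52 with Menthae Herba.

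Of 6 genes that process or export the clotting factors, 4, 4, 2 and 5 fell and 2, 1, 0 and 0 rose with Polygalae Radix, Aucklandiae Radix, Guibi-tang and Menthae Herba. With Soyo-san 2 fell, with Saposhnikoviae Radix 1 fell, and with Saengmaek-san none was called. GGCX, the carboxylase that uses vitamin K, fell by 1.29 with Polygalae Radix and 0.88 with Aucklandiae Radix, and LMAN1, the receptor that exports factor V from the endoplasmic reticulum, by 1.41 with Polygalae Radix. FURIN, which cleaves proproteins, rose by 1.12 with Aucklandiae Radix and 0.45 with Polygalae Radix, where VKORC1L1, a vitamin K reductase, rose by 0.47.

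Of 26 further complement genes 13 were tested, and 10, 8, 6 and 9 fell while 1, 3, 2 and 0 rose with Polygalae Radix, Aucklandiae Radix, Guibi-tang and Menthae Herba. In the other 3 extracts none was called. CLU, the terminal pathway inhibitor clusterin, fell by 2.06 with Polygalae Radix and rose by 1.39 with Aucklandiae Radix. CD55, which protects cells from complement, rose by 1.77 with Aucklandiae Radix and 0.61 with Guibi-tang. CPN2, a subunit of carboxypeptidase N, fell by 2.60 with Aucklandiae Radix, and C7, a terminal pathway protein, by 2.42 with Polygalae Radix.

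Other secreted liver proteins fell as well. Of 25 such genes 24 were tested, and 24, 22, 20 and 16 fell with Polygalae Radix, Aucklandiae Radix, Guibi-tang and Menthae Herba, with medians of -1.75, -0.61, -0.48 and -0.45 against -1.84, -0.67, -0.46 and -0.56 for the 33 genes. None rose in these 4 extracts. With Soyo-san 6 fell and 1 rose (AMBP, by 0.28), with Saposhnikoviae Radix 3 fell and with Saengmaek-san 1 fell. With Polygalae Radix ITIH2, a hyaluronan-binding protein, fell by 2.52, FETUB, a fetuin, by 2.40 and SERPINA6, the carrier of corticosteroids, by 2.40.

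The 12 liver transcription factors did not follow the secreted proteins in every extract: 7 rose and 1 fell with Polygalae Radix, while 1 rose and 7 fell with Aucklandiae Radix. With Menthae Herba 1 rose and 5 fell, with Guibi-tang 1 rose and 3 fell, with Soyo-san 0 rose and 2 fell, and with Saposhnikoviae Radix and Saengmaek-san none was called. HNF4A, a nuclear receptor that keeps hepatocyte genes on, fell by 1.55 (SE 0.066) with Aucklandiae Radix and rose by 0.22 (SE 0.063) with Polygalae Radix. With Aucklandiae Radix NR1H4, the bile acid receptor FXR, fell by 2.97 (SE 0.1), FOXA1 by 1.62 (SE 0.056), and CEBPB rose by 1.31 (SE 0.23). With Polygalae Radix CEBPD rose by 0.89 and FOXA3 by 0.87.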

How the data were processed

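Per the submitters' processing notes, FastQC 0.11.9, Trim Galore 0.6.5, STAR 2.7.3a and RSEM 1.3.3 were used with GRCh38, and the authors deposited RSEM estimated counts per gene from paired 100 bp reads of a directional kit. Neither annotation release nor strand setting of the counting is given in the sources used here, so reads of overlapping genes on opposite strands cannot be told apart. Of the deposited estimated counts 10.0% were not whole, and all were rounded. Symbols and exon lengths came from GENCODE 29, which matched 57055 of 60675 gene IDs.

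Genes were filtered with edgeR's filterByExpr (minimum count 10), scaled by TMM and tested with the quasi-likelihood test in 1 fit of 57 libraries in 22 groups (35 residual degrees of freedom, R 4.3.3, edgeR 4.0.16), and p-values were adjusted by the Benjamini-Hochberg method over 16982 genes. The common coefficient of variation was 4.7%. The scripts were tested on simulated data. Okbyeongpung-san, with 1 library per dose, was left out of the fit. Means of at least 1 CPM for keeping a gene used total counts without TMM. Alternatives were DESeq2 1.42.0, its size factors, other filters, only the groups compared, a trend with GC content and length removed, a replicate block, and leaving out each library. The total counts per library limit the precision of genes near 1 CPM, and floors cover counting error only.

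Every kept gene is accounted for by counts and ranges. Library values are given for the 2 genes with the largest change between high and low dose in each role group and for every gene higher in 1 extract and lower in another, and other pathway genes are the 3 highest and 3 lowest called changes of their list. Others are said to be named after their values were seen, and some genes that the rule names are not reported here. The members and lists were chosen with earlier results of these data known.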

Additional observations from a re-analysis of the deposited data

Results flagged for a closer look

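The dose response differed between extracts of the same set for 26 of the 33 genes between Polygalae Radix and Aucklandiae Radix, for 22 between Menthae Herba and Saposhnikoviae Radix, and for 23 between Guibi-tang and Saengmaek-san. Of all tested genes 60.1%, 10.6% and 19.6% differed in the same comparisons. Each is a count of genes for which edgeR's quasi-likelihood test of the difference itself passed. The single genes that stood out by a difference beyond 2 log2 units were all between Polygalae Radix and Aucklandiae Radix: VTN (-3.37), C8B (-2.56), CFB (-2.11) and C6 (-2.03) fell further with Polygalae Radix, VTN having risen with Aucklandiae Radix. MBL2 (3.12) and MASP2 (2.10) were further down with Aucklandiae Radix. The C6 value rests on 0 and 8 counts at the high dose of Polygalae Radix.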

How the results depend on the processing

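Of 132 calls between high and low dose over the 7 tested extracts, DESeq2 lost 5, no low-count filter 9, only the groups compared 6, removal of the GC and length trend 1, and a filter at a mean of 1 CPM and RLE scaling 0 each, and none reversed. Replicate numbers did not pair the libraries: their deviations correlated between -0.13 and 0.21. With the replicate block no call of the 132, or of 172 against vehicle, was lost. Removal of the GC and length trend left 148 of those 172 the same and lost 16. It also reversed 14 values against vehicle, counted over called and uncalled genes. Under the block Saengmaek-san had 3 called genes between high and low dose and Menthae Herba 0 between medium and low dose. For Saengmaek-san, with 1 in the report, DESeq2 gave 4, no filter 0, a mean of 1 CPM 2, the GC and length trend removed 3, and only the groups compared 3. With only the groups compared, each fit holds fewer libraries. Saposhnikoviae Radix then had 5 between high and low dose, and between medium and low dose Menthae Herba had 5 and Polygalae Radix 0. With the GC and length trend removed the counts of low dose against vehicle were 11 for Menthae Herba (27.5% of all tested genes), 9 for Saposhnikoviae Radix (26.1%) and 9 for Soyo-san (25.2%). Why these counts moved was not tested. Leaving out 1 library gave 0 to 2 genes for Saengmaek-san, 1 to 3 for Saposhnikoviae Radix and 4 to 7 for Soyo-san between high and low dose. It gave 10 to 20 for Polygalae Radix, 2 to 4 for Aucklandiae Radix, 5 to 7 for Guibi-tang and 0 to 0 for Menthae Herba between medium and low dose, and 12 to 19 for Saposhnikoviae Radix and 7 to 16 for Soyo-san between low dose and vehicle. Fits with a lone library assume that it varies like the other groups. Every leave-one-out fit kept the dispersion trend (spread by expression level) of all 57 libraries, so the library left out still had a part in it. Only the quasi-likelihood dispersion was estimated again. A reversed value changed sign, or was 0.00 after rounding (F2 with Saengmaek-san), and was called in the main fit, in the other fit or in both. Reversed values were all of high dose against vehicle with the GC and length trend removed: VTN with Aucklandiae Radix (0.20), PROC with Guibi-tang (0.03), FGG with Soyo-san (-0.24), FGB (-0.13), FGG (-0.02), SERPINF2 (0.03) and CFI (-0.08) with Saposhnikoviae Radix, and FGB (-0.14), FGG (-0.08), F2 (0.00), F11 (-0.17), SERPINF2 (0.06), CFI (-0.19) and C5 (-0.25) with Saengmaek-san. Depth limits F13B, C6 and C8G, the kept genes nearest 1 CPM.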
